A study of Mus musculus with 8 samples.

Results

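The 9 genes described here encode solute carriers that are known from the cells of the leptomeninges and the arachnoid barrier. They are Slc6a12, Slc6a13, Slc6a20a, Slc13a3, Slc13a4, Slc22a2, Slc22a6, Slc22a8 and Slc47a1, and they were found by symbol among the 25834 genes of the deposited count table. The set was put together because Slc6a12 is lower in SAP97-cKO hippocampi, so the genotype values of the members below, counts past a threshold of the fit over all genes included, are a description and support nothing. RNA was sequenced from hippocampi of male mice, with 1 library from each of 4 control and 4 SAP97-cKO animals. SAP97-cKO mice are Nestin-cre+/-; SAP97 fl/fl, and carry a floxed Dlg1 gene, which encodes the scaffold protein SAP97, deleted by Cre under the Nestin promoter. Their littermate controls were Nes-cre+/-, SAP97 fl/fl or wild-type, and the sources used here give neither the genotype behind each control library nor the age at which RNA was taken. Nestin-cre acts in neural progenitors and the neurons and glia that descend from them, and meningeal fibroblasts are largely of another lineage.

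The meninges are the layered coverings of the brain. The arachnoid barrier is an epithelium-like sheet joined by tight junctions, and with the fibroblasts of the pia and arachnoid it faces the cerebrospinal fluid. Carriers of these cells take up amino acids, osmolytes, sulfate and organic acids from the fluid and move organic anions and cations out of it, as renal tubule cells do with many of the same proteins. Several of the genes are also known outside the meninges. Slc13a4 and Slc6a20a are used by the choroid plexus epithelium, Slc22a8 by choroid plexus and brain endothelium, and Slc13a3 by astrocytes.

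Libraries held 37388177 to 37426572 counts and differed in depth by 0.103%. The values below are normalised read counts, which are deposited counts scaled by edgeR's TMM factors to the mean library. The targeted gene Dlg1 had 3983 to 4691 normalised counts in the control libraries and 2009 to 3065 in the SAP97-cKO libraries. These counts cover the whole gene. The paper reports reads on a single exon of SAP97 as far more strongly reduced. It also checked SAP97 protein in brain tissue of each sequenced animal by western blot. Hippocampal neuron markers (6 genes, of which Snap25, Rbfox3 and Neurod6 were the most abundant) summed to 3387 to 3814 CPM (counts per 1000000 TMM-scaled reads). The 16 meningeal markers were all detected, with a sum of 283 to 503 CPM in control and 167 to 272 CPM in SAP97-cKO libraries. The 10 choroid plexus markers were also all above 0, and their sum differed 67.3-fold between libraries, from 176 to 6893 CPM in control and from 102 to 2365 CPM in SAP97-cKO. Control replicates 2 and 3 and SAP97-cKO replicate 2 held the most choroid plexus RNA (6893, 3845 and 2365 CPM), so results are also given without these 3 libraries.

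All 9 carriers had enough reads to pass the filter on low counts, and all 9 had a fold change below 0 in SAP97-cKO hippocampi, as did 52.8% of the 16251 genes tested. Slc6a12, Slc6a13 and Slc22a6 were past the false discovery rate (FDR) of 0.25 that the study uses, in the lower direction, where the same test placed 0.283% of all genes tested, and 0 of the 9 were past it in the higher direction (0.0123% of all genes). Nothing is read from this share, since the members were chosen on the same contrast. The paper's own list of called genes, made with limma-voom on these libraries, holds Slc6a13 and Slc22a6. Slc6a12 and the other carriers are not in that list. For Slc6a12, Slc6a13, Slc6a20a and Slc22a6 the 4 SAP97-cKO libraries all lay below the 4 control libraries, as they did for 3.47% of the genes tested, and for 0 of the 9 they all lay above (2.78%). The median log2 fold change of the 9 genes was -1.14 and that of all genes tested was -0.01. The number of carriers past the threshold rested on single libraries. Leaving out control replicate 2, control replicate 4, SAP97-cKO replicate 3 or SAP97-cKO replicate 4 brought it to 0 (with 0.0%, 0.176%, 0.0% and 0.0% of all genes past it). Leaving out SAP97-cKO replicate 2 left 2 (0.28%), SAP97-cKO replicate 1 left 3 (2.73%), control replicate 3 gave 5 (0.31%) and control replicate 1 gave 7 (5.83%). When the 3 libraries with the most choroid plexus RNA were left out together, Slc6a12, Slc6a13 and Slc22a6 were past the threshold (0.133% of all genes). By other procedures on the 8 libraries, 2 carriers were past it with limma-voom (Slc6a13 and Slc22a6; 0.295% of genes) or with at least 10 counts asked of every library (Slc6a12 and Slc22a6; 0.218%), 7 with DESeq2 (3.84%) or a replicate block (1.44%), 3 with no scaling (0.578%), 4 with no filter (0.345%) and 1, Slc22a6, with DESeq2 size factors (0.203%). Slc6a12 itself was thus not past the threshold with limma-voom or with DESeq2 size factors, nor without SAP97-cKO replicate 2 or any of the 4 libraries whose removal left 0 carriers. In bulk tissue, fewer cells of a type and less RNA per cell cannot be told apart.

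**Figure D1:**
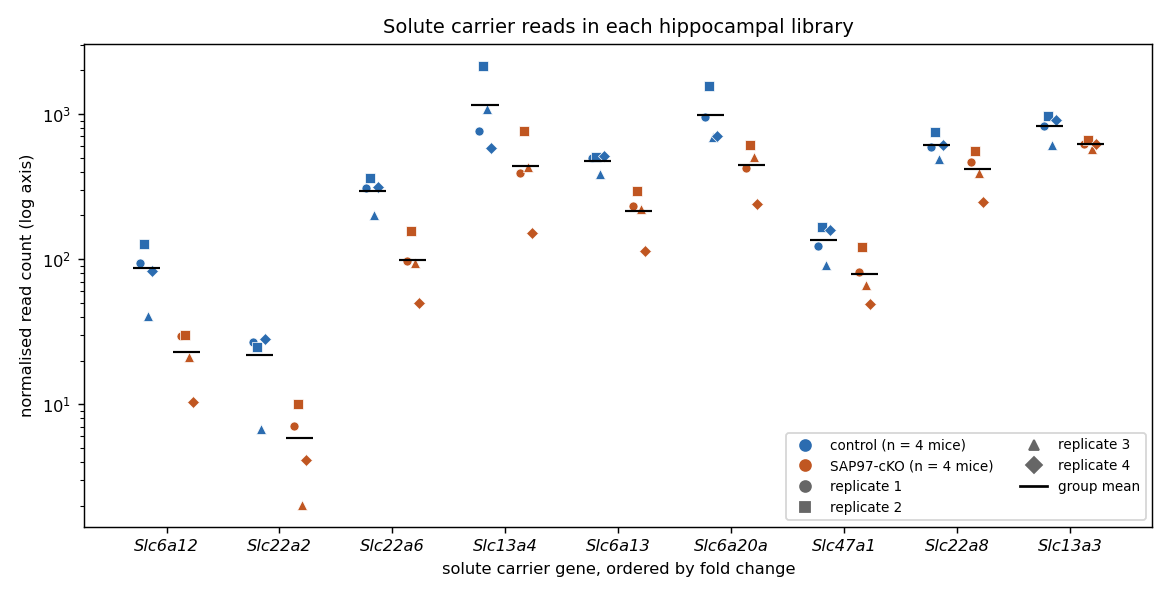
Normalised read counts of the 9 carriers (log axis) in each of the 4 control (blue) and 4 SAP97-cKO (orange) libraries; marker shape gives the replicate and black lines the group means. The groups do not overlap for Slc6a12, Slc22a6, Slc6a13 and Slc6a20a, and SAP97-cKO replicate 2 is the highest SAP97-cKO library for all 9 genes.

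The carriers of the SLC6 family move amino acids and osmolytes. Slc6a12 (ENSMUSG00000030109; chromosome 6 of GRCm38, 121343076 to 121365775, plus strand) encodes BGT1, which takes up betaine and GABA with sodium and chloride. Control libraries 1 to 4 had 94.0, 128, 40.8 and 82.5 normalised counts of Slc6a12, and SAP97-cKO libraries 1 to 4 had 29.5, 29.9, 21.3 and 10.4. The lowest control library, replicate 3, thus lay above the highest SAP97-cKO library. The means were 86.2 ± 35.8 (SD, n = 4) and 22.8 ± 9.16 (SD, n = 4), and SAP97-cKO reached 26.4% of control. Its log2 fold change of -1.91 ± 0.39 (SE) stayed between -2.14 and -1.66 with each library left out in turn.

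Slc6a13 (ENSMUSG00000030108; chromosome 6, 121300227 to 121337733, plus strand) lies 5342 bp upstream of Slc6a12 on the same strand and encodes GAT2, a carrier of GABA and taurine. It had 494, 508, 383 and 515 normalised counts in control libraries 1 to 4 and 231, 295, 221 and 114 in SAP97-cKO libraries 1 to 4. Slc6a13 was the steadiest of the 9 genes among controls, where its SD was 13.1% of the mean, and no library of either group reached the range of the other. Its means were 475 ± 62.3 (SD, n = 4) and 215 ± 74.8 (SD, n = 4), or 45.3% of control, and the log2 fold change was -1.14 ± 0.24 (SE).

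Slc6a20a (ENSMUSG00000036814; chromosome 9, 123634770 to 123678885, minus strand) encodes SIT1, an imino acid carrier that takes up proline. Its normalised counts were 956, 1554, 695 and 705 in control libraries 1 to 4 and 425, 609, 503 and 240 in SAP97-cKO libraries 1 to 4. Control replicate 2, the library richest in choroid plexus RNA, was more than 1.5 times any other library for this gene. The log2 fold change of Slc6a20a was -1.14 ± 0.31 (SE) over 8 libraries and -0.82 without control replicate 2. A close copy, Slc6a20b, lies 2204 bp away, so reads of the pair may have been divided by the authors' counting. Slc6a20b had 53 reads over the control libraries and 13 over the SAP97-cKO libraries, 4.08 times as many in control. The 95% exact limits of 2.19 and 8.15 cover counting error alone and not differences between mice. In normalised counts the groups overlapped, with control replicate 3 (4.86) below SAP97-cKO replicates 1 and 2 (8.15 and 4.98). Slc6a20b was too low to be tested. Exons of 3 genes on the opposite strand also overlap Slc6a20a, and the sources used here do not say whether reads were counted by strand.

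Both members of the SLC13 family carry anions with sodium, and they differed most from each other in how steady they were. Slc13a4 (ENSMUSG00000029843; chromosome 6, 35267957 to 35308131, minus strand) encodes a sulfate carrier. It had 765, 2140, 1087 and 586 normalised counts in control libraries 1 to 4 and 391, 764, 434 and 152 in SAP97-cKO libraries 1 to 4. Its highest SAP97-cKO library, replicate 2, lay just under control replicate 1 and above control replicate 4, so the groups overlapped. The SD of Slc13a4 was 60.7% of the mean in controls and 57.9% in SAP97-cKO. Its log2 fold change was -1.39 ± 0.48 (SE), and -0.90 without control replicate 2.

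Slc13a3 (ENSMUSG00000018459; chromosome 2, 165405028 to 165473230, minus strand) encodes NaDC3, a carrier of succinate and other dicarboxylates. It had 825, 964, 609 and 903 normalised counts in control libraries 1 to 4 and 625, 665, 571 and 618 in SAP97-cKO libraries 1 to 4. The SAP97-cKO libraries were close together, with an SD of 6.19% of the mean, and control replicate 3 fell inside their range. Of the 9 genes Slc13a3 had the smallest difference, -0.41 ± 0.13 on the log2 scale (SE), and SAP97-cKO reached 75.1% of control.

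The organic anion and cation carriers spanned a wide range of differences. Slc22a6 (ENSMUSG00000024650; chromosome 19, 8618039 to 8628299, plus strand) encodes OAT1, an exchanger that takes up organic anions against dicarboxylates. Control libraries 1 to 4 had 309, 364, 201 and 312 normalised counts of Slc22a6, and SAP97-cKO libraries 1 to 4 had 96.7, 155, 93.2 and 49.8. The groups were apart, with means of 296 ± 68.4 (SD, n = 4) and 98.8 ± 43.3 (SD, n = 4), and SAP97-cKO reached 33.3% of control. The log2 fold change of Slc22a6 was -1.58 ± 0.30 (SE), between -1.89 and -1.36 with each library left out in turn.

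Slc22a8 (ENSMUSG00000063796; chromosome 19, 8591254 to 8611835, plus strand) encodes OAT3, a second organic anion exchanger, and its annotated end is 6203 bp from the start of Slc22a6. It had 594, 752, 489 and 615 normalised counts in control libraries 1 to 4 and 465, 551, 391 and 249 in SAP97-cKO libraries 1 to 4. Here the groups overlapped, since SAP97-cKO replicate 2 lay above control replicate 3. The log2 fold change of Slc22a8 was -0.56 ± 0.22 (SE), beside the -1.58 ± 0.30 (SE) of its neighbour Slc22a6.

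The cation carriers, together with Slc6a12, were the genes with the fewest reads. Slc22a2 (ENSMUSG00000040966; chromosome 17, 12584132 to 12628488, plus strand) encodes OCT2, an organic cation transporter. It had 27.0, 24.9, 6.80 and 28.1 normalised counts in control libraries 1 to 4 and 7.13, 9.95, 2.03 and 4.15 in SAP97-cKO libraries 1 to 4. Control replicate 3 lay inside the SAP97-cKO range and apart from the other controls. With so few reads, the log2 fold change of -1.87 carried the largest standard error of the 9 genes, 0.54. It lay within this error of the -1.91 of Slc6a12, and it was the larger of the pair when control replicate 2 or 3 or SAP97-cKO replicate 2 or 4 was left out, as without SAP97-cKO replicate 2 (-2.26 and -2.07).

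Slc47a1 (ENSMUSG00000010122; chromosome 11, 61343401 to 61378345, minus strand) encodes MATE1, which exports organic cations against protons. Its normalised counts were 123, 167, 91.3 and 158 in control libraries 1 to 4 and 81.5, 120, 65.9 and 48.8 in SAP97-cKO libraries 1 to 4. SAP97-cKO replicate 2 lay above control replicate 3 and just below control replicate 1. The means were 135 ± 34.8 (SD, n = 4) and 79.1 ± 30.6 (SD, n = 4), with a log2 fold change of -0.77 ± 0.28 (SE).

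The upstream sequences of both neighbouring pairs, Slc6a13 with Slc6a12 and Slc22a8 with Slc22a6, are shown because each pair holds a gene of large difference beside a gene of smaller difference. Each window runs from 250 bases before to 50 bases after a RefSeq transcript start (GRCm38.p6), and the start nearest to the annotated gene start was taken. In the kidney, Slc22a6 and Slc22a8 are known targets of the HNF1 factors, and the HNF1 half-site GTTAAT, searched on both strands, is in capitals.
Slc6a13, chr6:121300038-121300337, plus strand: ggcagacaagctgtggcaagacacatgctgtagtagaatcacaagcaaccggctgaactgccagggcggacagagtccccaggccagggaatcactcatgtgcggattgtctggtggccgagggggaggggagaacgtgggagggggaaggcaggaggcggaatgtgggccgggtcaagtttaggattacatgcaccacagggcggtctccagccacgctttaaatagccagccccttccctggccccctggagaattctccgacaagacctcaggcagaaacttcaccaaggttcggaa
Slc6a12, chr6:121342826-121343125, plus strand: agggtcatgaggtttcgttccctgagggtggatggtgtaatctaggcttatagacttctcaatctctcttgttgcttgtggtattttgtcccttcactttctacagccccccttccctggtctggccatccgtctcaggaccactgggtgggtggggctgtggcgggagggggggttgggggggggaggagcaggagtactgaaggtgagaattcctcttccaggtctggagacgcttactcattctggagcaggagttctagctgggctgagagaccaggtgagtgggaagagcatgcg
Slc22a8, chr19:8592932-8593231, plus strand: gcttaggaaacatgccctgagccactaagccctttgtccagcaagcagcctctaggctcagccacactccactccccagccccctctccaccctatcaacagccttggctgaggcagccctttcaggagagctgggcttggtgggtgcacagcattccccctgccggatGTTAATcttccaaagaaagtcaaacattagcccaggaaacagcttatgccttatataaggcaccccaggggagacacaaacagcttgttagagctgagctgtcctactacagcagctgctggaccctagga
Slc22a6, chr19:8617746-8618045, plus strand: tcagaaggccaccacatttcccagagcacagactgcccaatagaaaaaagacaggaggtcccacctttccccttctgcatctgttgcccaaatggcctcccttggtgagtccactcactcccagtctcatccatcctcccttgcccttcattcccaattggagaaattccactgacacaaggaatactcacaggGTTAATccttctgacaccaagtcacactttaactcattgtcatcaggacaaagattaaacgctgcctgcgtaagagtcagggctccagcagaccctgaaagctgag
The half-site begins 81 bases before the start of Slc22a8 and 56 bases before that of Slc22a6, and these letters are not in the windows of Slc6a13 and Slc6a12. The window of Slc22a8 starts from a RefSeq start 1928 bp downstream of the first annotated base of the gene. Windows were found for 8 of the 9 carriers, all but Slc47a1. Among these 8, 3 held GTTAAT (Slc6a20a beside the organic anion carriers), compared with 7.10% of 32817 promoter windows, and 4 held the GC box GGGCGG, compared with 35.6%. The TATA box TATAAA and the forkhead site TGTTTAC were in 0 of the 8, compared with 13.6% and 3.65% of all windows. The 4 motifs were chosen with matches in these windows known, they do not overlap one another, and a match is a run of letters and not a shown binding site.

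Levels can be compared between genes only per length. Length-scaled levels (RPKM, the CPM divided by kilobases of merged exon, computed here from the counts) put the carriers in the order Slc6a20a, Slc13a3, Slc13a4, Slc22a8, Slc6a13, Slc22a6, Slc47a1, Slc6a12 and Slc22a2, by the mean log2 level over 8 libraries. Slc6a20a ran from 4.55 to 10.2 RPKM in control and from 1.57 to 3.99 RPKM in SAP97-cKO libraries. At the other end, Slc22a2 ran from 0.0732 to 0.303 RPKM in control and from 0.0218 to 0.107 RPKM in SAP97-cKO libraries. By mean level, Slc13a4 and Slc6a20a were above 53.5% of the genes tested, Slc6a12 above 16.5% and Slc22a2 above 4.53%. Slc6a12, the gene on which the set was chosen, was thus a scarce transcript of the hippocampus, with Slc22a6 and Slc47a1 between it and its genomic neighbour Slc6a13 in level.

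The order was set on these libraries and pools both genotypes, so the steps between neighbours are a description. At the lower end the order held in each library. Slc6a13 was above Slc22a6 in 8 of 8 libraries, by 1.16 in control and 1.61 in SAP97-cKO on the log2 scale. Slc47a1 was above Slc6a12 in 8 of 8, by 0.57 in control and 1.66 in SAP97-cKO, and Slc6a12 above Slc22a2 in 8 of 8, by 1.74 and 1.66. Slc22a6 was above Slc47a1 in 7 of 8 libraries, by 0.90 in control and 0.05 in SAP97-cKO.

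The upper 5 genes had another order in each genotype. By mean RPKM the control order was Slc13a4 (6.76 ± 4.11, SD, n = 4), Slc6a20a (6.40 ± 2.64), Slc6a13 (4.38 ± 0.57), Slc13a3 (4.23 ± 0.79) and Slc22a8 (4.19 ± 0.74). In SAP97-cKO it was Slc13a3 (3.18 ± 0.20, SD, n = 4), Slc6a20a (2.91 ± 1.02), Slc22a8 (2.83 ± 0.88), Slc13a4 (2.57 ± 1.49) and Slc6a13 (1.98 ± 0.69). Neighbours among these genes were in the pooled order in 4 or 5 of 8 libraries. Each of their 4 steps turned between genotypes on the log2 scale, with Slc6a20a over Slc13a3 at 0.54 in control and -0.21 in SAP97-cKO, Slc13a3 over Slc13a4 at -0.52 and 0.52, Slc13a4 over Slc22a8 at 0.53 and -0.30, and Slc22a8 over Slc6a13 at -0.07 and 0.53.

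**Figure D2:**
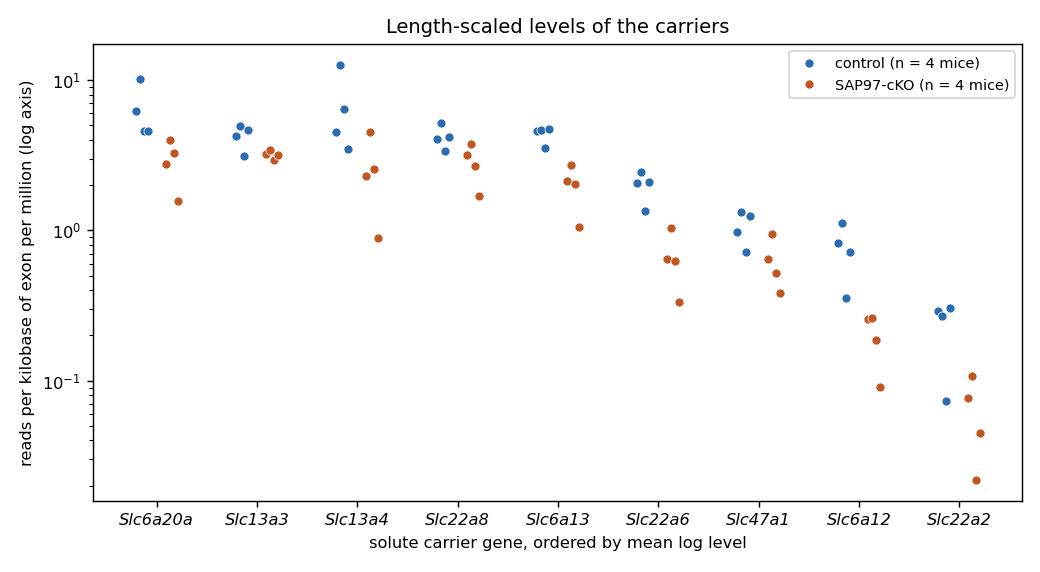
Length-scaled levels in RPKM (log axis) for the 9 carriers in 4 control (blue) and 4 SAP97-cKO (orange) libraries, 1 point per mouse, ordered by mean log level. The upper 5 genes lie at like levels, and Slc22a2 is the lowest, at 0.0218 to 0.303 RPKM.

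Libraries of 1 genotype differed in the carriers together. SAP97-cKO replicate 2 was the highest SAP97-cKO library for all 9 genes and replicate 4 the lowest for 7, with Slc13a3 and Slc22a2 lowest in replicate 3. Among controls, replicate 2 was the highest for 7 genes and replicate 3 the lowest for 8. After log2 CPM values were centred within genotype, Pearson's r was above 0 for all 36 pairs of carriers, from 0.14 to 0.97 with a median of 0.75 over the 8 libraries. Slc22a6 and Slc22a8 were the most alike (r = 0.97, Spearman's rho = 0.88), and Slc6a20a and Slc13a4 formed a like pair (r = 0.90, rho = 0.83). Slc13a3 and Slc22a2 were alike (r = 0.84, rho = 0.74) and varied least with Slc13a4 (r = 0.16 and 0.14). The points of each r share libraries, scaling and dissection, and the values are given as a description.

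The carriers differed in how closely they varied with choroid plexus RNA. The within-genotype r with the mean of the 10 choroid plexus markers was 0.94 for Slc13a4 (rho = 0.95) and 0.79 for Slc6a20a (rho = 0.69). It was 0.57 for Slc22a8 (rho = 0.52), 0.50 for Slc22a6 (0.38), 0.48 for Slc6a13 (0.19) and 0.39 for Slc6a12 (0.55). The lowest values were 0.35 for Slc47a1 (rho = 0.40), -0.11 for Slc13a3 (0.10) and -0.14 for Slc22a2 (-0.17). Over 8 libraries, a low r does not show that a carrier varied apart from these markers. Without the 2 libraries farthest from the median of the marker mean, r was 0.91 for Slc13a4, 0.55 for Slc6a20a and 0.05 for Slc6a12. With the mean of the 16 meningeal markers, r was 0.92 for Slc22a6, 0.91 for Slc6a20a, 0.84 for Slc13a4, 0.83 for Slc6a13 and 0.77 for Slc6a12, and it was lowest for Slc22a2 at 0.44. Without the 2 libraries farthest from the median of that mean, r was 0.88 for Slc22a6 and Slc6a13, 0.84 for Slc6a20a, 0.71 for Slc6a12, 0.57 for Slc13a4, 0.19 for Slc13a3 and 0.05 for Slc22a2. Among the meningeal markers, Igf2 and Krt18 kept the library order of the choroid plexus sums in both genotypes. An r with the meningeal mean is thus not separate from choroid plexus RNA. Slc22a8, also known from brain endothelium, had r = 0.87 (rho = 0.83) with the meningeal and 0.56 (rho = 0.12) with the 8 endothelial markers. Without the 2 libraries farthest from the median of each marker mean, its r was 0.77 with the meningeal and -0.29 with the endothelial markers. Slc13a4 thus varied most closely of the 9 with the choroid plexus markers, by r and by rho and also over 6 libraries, while no single carrier led with the meningeal markers by all 3 measures.

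**Figure D3:**
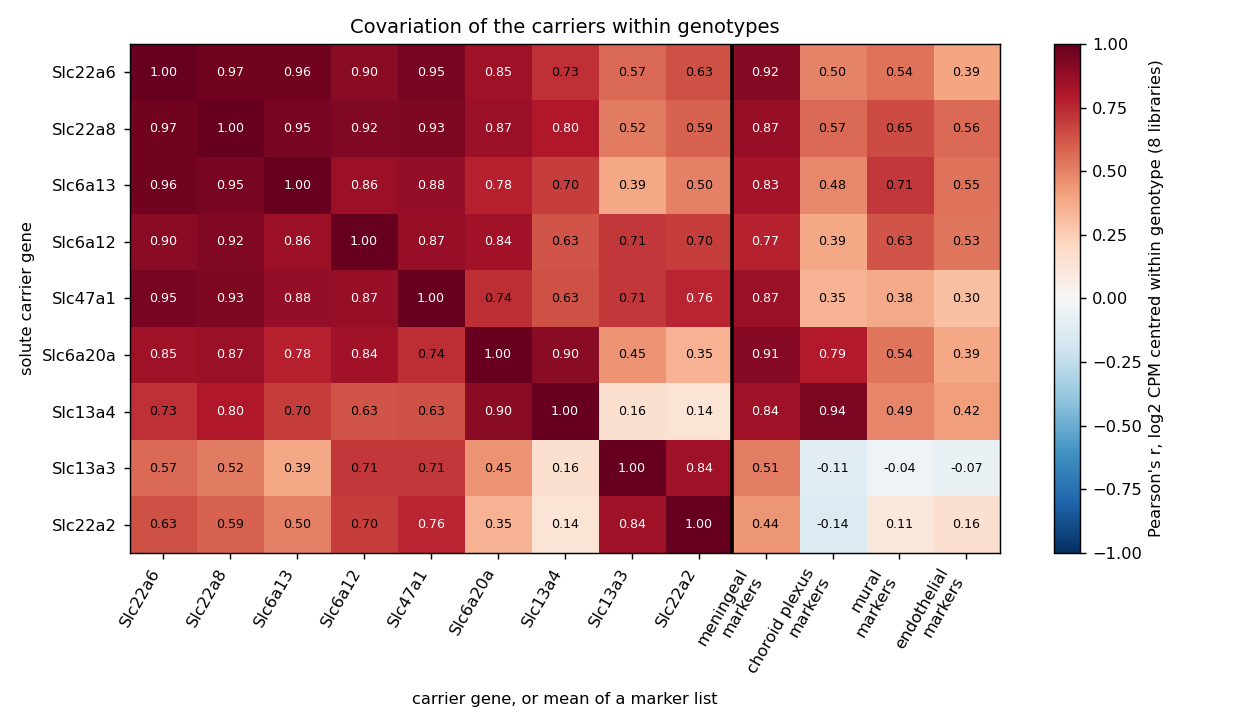
Pearson's r over 8 libraries of log2 CPM centred within genotype, between the 9 carriers (left) and between each carrier and the mean of a marker list (right of the line). Slc13a4 has r = 0.94 with the choroid plexus markers, where Slc13a3 and Slc22a2 are at -0.11 and -0.14.

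A control and a SAP97-cKO library with near-equal choroid plexus RNA were picked after the values were seen and set side by side. SAP97-cKO replicate 3 held 1365 CPM of the choroid plexus markers and control replicate 1 held 1213 CPM, and all 9 carriers were lower in the SAP97-cKO library. Slc22a2 was at 7.5% of the control library, Slc6a12 at 22.6%, Slc22a6 at 30.1%, Slc13a4 at 56.7% and Slc13a3, the nearest to control, at 69.2%. Without control replicates 2 and 3 and SAP97-cKO replicate 2, log2 fold changes were -2.59 ± 0.52 (SE) for Slc22a2, -2.10 ± 0.37 for Slc6a12, -1.95 ± 0.25 for Slc22a6 and -1.41 ± 0.25 for Slc6a13. They were -1.05 ± 0.34 (SE) for Slc13a4 and -1.09 ± 0.26 for Slc6a20a. The differences were thus larger without these libraries for 7 of the 9 carriers and smaller for Slc13a4 and Slc6a20a. These libraries include control replicate 3, the lowest control for 8 carriers, and SAP97-cKO replicate 2, the highest SAP97-cKO library for all 9. Without control replicate 3 alone, Slc22a2 was at -2.16 and Slc22a6 at -1.72. Without SAP97-cKO replicate 2 alone, they were at -2.26 and -1.89. The part of choroid plexus RNA in the differences was not tested.

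**Figure D4:**
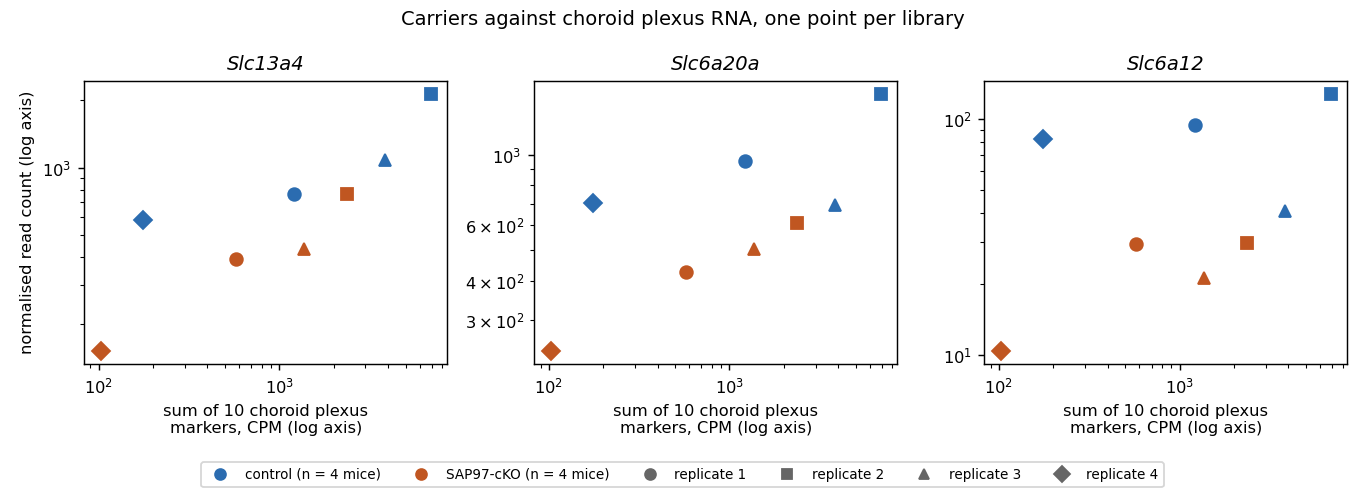
Normalised read counts of Slc13a4, Slc6a20a and Slc6a12 against the summed CPM of 10 choroid plexus markers (both axes log), 1 point per library, control in blue and SAP97-cKO in orange. Control replicate 2, at 6893 CPM, is highest in all 3 panels. Control replicate 4, at 176 CPM, is above all SAP97-cKO libraries for Slc6a20a and Slc6a12 but not for Slc13a4.

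**Figure D5:**
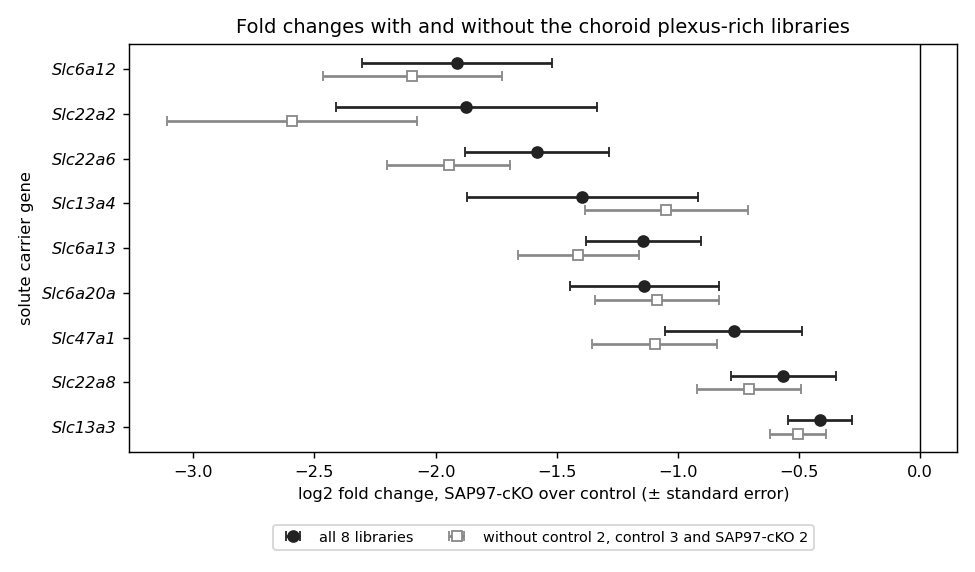
Log2 fold change (SAP97-cKO over control, ± standard error from edgeR) of the 9 carriers with all 8 libraries (filled) and without control replicates 2 and 3 and SAP97-cKO replicate 2 (open). All values are below 0, and Slc13a4 moves from -1.39 to -1.05. The libraries left out include the lowest control of 8 carriers and the highest SAP97-cKO library of all 9.

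Meningeal fibroblast and arachnoid markers were counted in the same fit. Of the 16 meningeal markers, 16 had a fold change below 0, with a median of -1.01 on the log2 scale. In the lower direction 5 were past the threshold (0.283% of all genes tested). An unadjusted p under 0.05 in edgeR was found for 13 of the 16 and for 1907 of the 16251 genes tested. The SAP97-cKO libraries all lay below the control libraries for 10 of the 16, as for 3.47% of all genes. Several of these markers, such as Ogn and Col3a1, are in the list of called genes of the study. That list was made on these libraries and is not independent evidence. Their most abundant members were Igf2, a growth factor (5979 ± 3660 and 3478 ± 1331 normalised counts in control and SAP97-cKO, SD, n = 4), Dcn, a proteoglycan (2086 ± 880 and 2076 ± 1010), and Col1a2, a fibrillar collagen chain (1000 ± 220 and 495 ± 104). Col1a2 fell by 1.01 ± 0.18 on the log2 scale (SE, with an FDR of 0.190 in edgeR), while the Dcn means were nearly equal. Dcn had the smallest difference of the 16 markers. The part of meningeal RNA in the carriers' differences was not tested.

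All 10 choroid plexus markers had fold changes below 0, with a median of -1.48 on the log2 scale, and 0 passed the threshold in edgeR, with 0 at an unadjusted p under 0.05. Ttr, the transthyretin that choroid plexus secretes, ran from 4705 to 232258 normalised counts in control and from 2158 to 79675 in SAP97-cKO. Kl and Clic6 were the next most abundant. Endothelial markers (8 genes) had a median log2 fold change of -0.22 and mural cell markers (7 genes) one of -0.22, with sums of 283 to 306 and 205 to 225 CPM in control and of 200 to 335 and 127 to 206 CPM in SAP97-cKO. The 5 ependymal markers had a median of -0.54 and sums of 20.5 to 49.4 and 20.4 to 29.8 CPM. The most abundant genes of these lists were Flt1, Itm2a and Slco1a4 of endothelium, Rgs5, Vtn and Pdgfrb of mural cells, and Foxj1, Rarres2 and Ccdc153 of ependyma. In edgeR 0 of these 20 endothelial, mural and ependymal genes passed the threshold, with 1, 3 and 3 at an unadjusted p under 0.05.

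Relatives of the carriers were counted for comparison. The table holds 38 other genes whose symbols start with Slc6a, Slc13a, Slc22a or Slc47a, of which 21 passed the filter on low counts. Taken by symbol, they include an opposite-strand transcript and a pseudogene, neither of which passed the filter. In edgeR 0 of the 21 passed the threshold in either direction, and 0 were at an unadjusted p under 0.05. Limma-voom and DESeq2 also called 0. Their fold changes lay below 0 for 9 genes and above 0 for 12, with a median of 0.04 on the log2 scale. Abundant relatives were Slc22a17 (20130 ± 1366 and 21770 ± 2053 normalised counts in control and SAP97-cKO, SD, n = 4) and Slc6a17, a neuronal vesicle amino acid carrier (18370 ± 1505 and 21240 ± 2513). The difference between the carriers and their relatives was not tested.

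Of 30 other carriers and pumps known at brain barriers, 27 had fold changes below 0 and 0 were past the threshold in edgeR. An unadjusted p under 0.05 was found for 5 of the 30 and for 1907 of the 16251 genes tested. Limma-voom called 0 of them and DESeq2 called 3 in the lower direction. Their median log2 fold change was -0.19. The most abundant were Slc1a3, the astrocyte glutamate transporter (29050 ± 5020 and 29360 ± 2846 normalised counts, SD, n = 4), Slc23a2, an ascorbate carrier (6150 ± 1039 and 6471 ± 203), and Slc2a1, the glucose transporter of the blood-brain barrier (4236 ± 144 and 3405 ± 498). The SAP97-cKO libraries all lay below the control libraries for 1 of the 30, Slc2a1, a share near the 3.47% of all genes, and its log2 difference was -0.32 ± 0.10 (SE; FDR 0.341, edgeR).

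Genes that varied most like the mean of the 9 carriers within genotypes were Efemp1 (r = 0.97, rho = 0.90), Tmem44 (r = 0.97, rho = 0.98), Slc7a11 (r = 0.97, rho = 0.98), Ptgds (r = 0.97, rho = 0.79) and Fxyd5 (r = 0.97, rho = 0.83), over 8 libraries and among the 16251 genes tested. These 5 genes were picked for the highest r in a search over all genes tested, so the size of r is a description and supports nothing. Without SAP97-cKO replicates 2 and 4, the libraries farthest from the median, their r was 0.92 to 0.94. This value comes from the same libraries and is no separate check. With no scaling Slc7a11 was in place 8 of this order and the other 4 were within the first 5. Efemp1 encodes fibulin-3 of the extracellular matrix, Ptgds a prostaglandin D synthase secreted into the cerebrospinal fluid, and Slc7a11 the cystine-glutamate exchanger. Their genotype values were unlike one another. Ptgds had a log2 fold change of -1.21 and Efemp1 of -0.74, while Tmem44 had 1257 normalised counts in control and 1273 in SAP97-cKO on average, a log2 fold change of 0.02.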

How the data were processed

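RNA-seq libraries came from the hippocampus of 8 male mice, 4 per genotype. The authors aligned reads with STAR 2.5.3a (mm10, GRCm38.p5). Their PORT pipeline then left out ribosomal and mitochondrial reads, brought all libraries to the same depth by resampling and made counts for Ensembl genes. The deposited values are whole-number counts per gene. Columns with the authors' own fold changes, p-values and q-values were not used. Exon lengths and coordinates were taken from GENCODE M21 (GRCm38), which matched 25696 of 25834 gene identifiers.

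Genes were kept with filterByExpr by genotype (minimum count 10, minimum total 15). Genotypes were compared in edgeR 4.0.16 (R 4.3.3; TMM scaling, quasi-likelihood F test), and p-values of 16251 genes were adjusted by Benjamini-Hochberg, with a threshold of FDR under 0.25. The standard error is the log2 fold change divided by the square root of F. The script was tested on simulated counts. CPM values are counts per 1000000 TMM-scaled reads, and 0.5 was added to a count before logarithms. Neighbouring carriers were compared by length-scaled levels; sign-flip permutation tests of these steps were run but are not given, because the order came from the same libraries and the steps differ by genotype. Alternatives were limma-voom (limma 3.58.1), DESeq2 1.42.0, other scalings and filters, a replicate block, an FDR of 0.05 and leaving out each library. Leaving out 3 libraries together was chosen after seeing the data. Same-numbered libraries had correlations of -0.058, 0.194, 0.097 and 0.257, and the labels name no pairs, so the numbers were not taken as pairs. Choroid plexus sums nonetheless fell in the order of replicates 2, 3, 1 and 4 in both genotypes. They were 6893, 3845, 1213 and 176 CPM in control and 2365, 1365, 576 and 102 CPM in SAP97-cKO. Whether same-numbered libraries belong together is thus not known. No 2 libraries were alike within sampling noise (chi-square per gene 9.17 or more).

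The 9 carriers and the lists of relatives, other barrier carriers and cell type markers were chosen with earlier results of these data known. Genes named are the carriers, Dlg1, Slc6a20b, relatives and other barrier carriers past the threshold (none were), the 3 most abundant genes of these lists and of each marker list, and the 5 genes most like the carriers, except for 1 relative that is not reported here. Ogn, Col3a1 and Krt18 and the genes of the closing observations were named after their values were seen.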

Additional observations from a re-analysis of the deposited data

Results flagged for a closer look

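Among 32 groups of 4 libraries checked for a single library that stands apart (each carrier, the sum of the carriers and each summed marker list, in control and in SAP97-cKO), 3 were found, where chance gives about 1 in 20. In Slc6a13, control replicate 3 (383 normalised counts) lay below the other controls (494 to 515), with a gap of 0.841 of the range of the group. In Slc22a2, control replicate 3 (6.80 normalised counts) lay below the other controls (24.9 to 28.1), with a gap of 0.848 of the range. The summed meningeal markers of control replicate 2 (503 CPM) lay above the other controls (283 to 305 CPM), with a gap of 0.899 of the range. Igf2, the most abundant of these markers, had 11040 normalised counts in that library and 2890 to 6223 in the other controls. Dcn, the next most abundant, was highest in control replicate 4. Control replicate 2 was also the library richest in choroid plexus RNA, and the sum was not taken without Igf2. Without control replicate 3 the carriers past the threshold numbered 5, and without control replicate 2 they numbered 0, with edgeR.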

How the results depend on the processing

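The fold changes of the 9 carriers stayed below 0 in all 143 values from the 16 other settings, while their size moved, for Slc13a4 from -1.39 to -0.90 without control replicate 2 and for Slc22a2 from -1.87 to -2.59 without the 3 libraries richest in choroid plexus RNA. Calls were less steady. With edgeR on all 8 libraries, 46 genes were lower and 2 higher in SAP97-cKO at an FDR under 0.25. There were 94 lower and 1 higher with no scaling, 89 and 15 with no filter, 588 and 445 with DESeq2, and 22 and 1 without the 3 libraries richest in choroid plexus RNA. At an FDR under 0.05 edgeR called 0 lower and 0 higher genes, so that 0 carriers were past it, with 1907 genes at an unadjusted p under 0.05. Leaving out 1 library gave 0 to 960 lower and 0 to 715 higher genes. Carriers past the threshold numbered 3 in the lower direction, 1 with DESeq2 size factors in edgeR, 7 with DESeq2 and 0 to 7 with 1 library left out. Other barrier carriers lower in SAP97-cKO numbered 3 with DESeq2 and 0 to 3 with 1 library left out, those higher numbered 0 to 1, and relatives higher numbered 0 to 2.

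With the replicate number as a block, which is not known to pair the mice, edgeR called 234 lower and 22 higher genes, 7 carriers and 3 other barrier carriers, and the call of no family relative changed. Of the libraries, 3 of 4 control libraries correlated best with their own number. With the length of the longest transcript, Slc6a20a was below Slc13a3 by a log2 difference of -0.33. With 1 library left out, the log2 difference of Slc13a3 over Slc13a4 ran from -0.26 to 0.20, that of Slc13a4 over Slc22a8 from -0.055 to 0.26 and that of Slc22a6 over Slc47a1 from 0.39 to 0.57, the highest without SAP97-cKO replicate 4. The cause of these shifts was not tested. Depth limits Slc22a2 most, with 2 to 29 reads per library.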

Other observations

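Some relatives of the carriers stood out in 1 library and were noticed after their values were seen. Slc6a5, the glycine transporter GlyT2 of glycinergic neurons, had 1238 normalised counts in control replicate 3 and 32.9 to 264 in the other 7 libraries. In the same library Slc6a2, the noradrenaline transporter, had 29.1 and Slc6a4, the serotonin transporter, 43.7 normalised counts, compared with 0 to 8.15 and 3.04 to 23.9 in the others. Slc22a3, the organic cation transporter OCT3, had 76.7 normalised counts in SAP97-cKO replicate 2 and 9.16 to 27.2 in the other 7 libraries.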
